A study of Mus musculus with 6 samples.

Results

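Negative feedback genes of the ERK pathway and its target genes Etv4 and Etv5 were followed in mouse primary cortical cultures treated with 10HDA or vehicle. Together they are called feedback genes here. The set held 10 genes, Dusp1, Dusp4, Dusp5, Dusp6, Spry1, Spry2, Spry4, Spred1, Etv4 and Etv5, chosen by name. Each symbol matched 1 Ensembl identifier, so that 10 of the 43346 genes in the count table were members. All 6 libraries came from cells of male (SRY+) Cyp19-EGFP fetuses, which carry an EGFP reporter of the aromatase gene, at gestational day 15.5. The vehicle libraries had DMSO (spelled DSMO in the labels), and the 10HDA libraries had 1 mM 10HDA, trans-10-hydroxy-2-decenoic acid, a fatty acid of royal jelly. Cultures 1, 3 and 4 each gave 1 vehicle and 1 10HDA library, so that a vehicle and a 10HDA value from the same culture form a pair. The methods name C57BL/6 embryos for this experiment, and how many fetuses went into a culture is not given in the sources used here.

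Libraries held from 9144736 to 13367194 counts on genes. Neuron markers such as Tubb3, Map2 and Snap25 were well represented, and the 11 genes of that list summed to 8360 to 8927 CPM (counts relative to the scaled library total) with vehicle. Microglia markers were nearly absent, with the 8 genes together at 1.17 CPM or less in every library and Tmem119 at 0. Although all libraries are labelled as male, the Y chromosome genes Uty, Kdm5d, Eif2s3y and Ddx3y summed to 8.88 and 9.09 CPM in culture 1, against 95.8 to 133 CPM in the other 4 libraries. Calls are therefore also given without culture 1. RNA was taken from whole cultures, so fewer cells of a type and less RNA per cell cannot be told apart.

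ERK is the last kinase of a cascade that carries signals of growth factor receptors through RAS, RAF and MEK to the nucleus. Its activity is limited by genes that it switches on itself. DUSP proteins of this class remove the activating phosphates from MAP kinases, Sprouty and SPRED proteins act further up, between the receptor and RAF, and ETV4 and ETV5 are ETS transcription factors induced by FGF signalling. Capicua (CIC) is a repressor that sits on several of these genes and is released by ERK. In the developing cortex FGF and ERK signalling is known for its roles in progenitor growth and in the formation of glia.

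RefSeq promoter windows of GRCm38.p6 were read for 7 of the 10 members (8 windows, since Etv5 has 2 start sites), as the 250 bases before each start. Dusp4, Spry4 and Etv4 are named only. Searched on both strands were the Capicua octamer (TGAATGAA, TGAATGGA, TCAATGAA or TCAATGGA), its core TGAATG, the cyclic AMP response element TGACGTCA and the CArG box, the site of serum response factor. The octamer stood in 3.19% of all 32851 windows of this length, the core in 10.9%, the cyclic AMP element in 1.55% and the CArG box in 1.47%. The core is part of the first pair of octamer spellings. The 5 member windows that hold a match are printed here, with matches in capitals, 5′ to 3′ on the strand of the gene, cut where an exon of the gene begins in GENCODE M21. They are Etv5 at its downstream start (chr16:22438369-22438618, minus strand), Spry2 (chr14:105896820-105897069, minus strand), Dusp6 (chr10:99262981-99263230, plus strand), Dusp5 (chr19:53528895-53529108, plus strand) and Dusp1 (chr17:26508520-26508722, minus strand).
Etv5: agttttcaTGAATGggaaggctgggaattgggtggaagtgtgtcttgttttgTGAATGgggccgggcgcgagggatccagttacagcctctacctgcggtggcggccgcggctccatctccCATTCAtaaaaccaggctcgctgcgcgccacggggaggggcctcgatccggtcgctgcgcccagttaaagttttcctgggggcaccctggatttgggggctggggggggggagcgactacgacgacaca
Spry2: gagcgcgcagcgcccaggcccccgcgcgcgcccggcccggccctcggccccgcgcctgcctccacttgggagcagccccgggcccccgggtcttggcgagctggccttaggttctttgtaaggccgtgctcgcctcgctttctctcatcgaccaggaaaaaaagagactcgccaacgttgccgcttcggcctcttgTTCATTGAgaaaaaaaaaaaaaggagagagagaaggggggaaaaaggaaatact
Dusp6: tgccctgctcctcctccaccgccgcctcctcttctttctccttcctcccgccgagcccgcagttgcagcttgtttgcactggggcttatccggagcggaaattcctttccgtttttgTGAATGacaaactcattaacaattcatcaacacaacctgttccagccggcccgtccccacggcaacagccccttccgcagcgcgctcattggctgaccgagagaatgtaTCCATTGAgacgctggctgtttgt
Dusp5: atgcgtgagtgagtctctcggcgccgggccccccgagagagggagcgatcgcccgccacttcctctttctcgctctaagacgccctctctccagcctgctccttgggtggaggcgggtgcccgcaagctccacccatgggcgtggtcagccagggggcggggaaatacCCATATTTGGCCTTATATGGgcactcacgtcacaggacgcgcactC
Dusp1: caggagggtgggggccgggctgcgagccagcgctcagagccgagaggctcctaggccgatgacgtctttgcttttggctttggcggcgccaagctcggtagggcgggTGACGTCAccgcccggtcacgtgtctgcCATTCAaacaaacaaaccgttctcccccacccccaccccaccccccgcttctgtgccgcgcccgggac

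In these windows the octamer was found in Dusp6, starting at base -24 from the start site, and in Spry2, at base -54. The downstream Etv5 window had 3 cores, and the Dusp6, Dusp5 and Dusp1 windows had 1 each. The Dusp5 core started at base -37, and only its first base, the last capital C, lies in the stretch shown. Dusp5 carried 2 adjoining CArG boxes and Dusp1 a cyclic AMP element at base -143. No match was found in the windows of Spry1, of Spred1 or of the upstream Etv5 start, which says only that these letters are not in those windows.

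Most feedback genes differed little between treatments, and fold changes of the members had both signs. The Sprouty and Spred genes and Etv5 had higher mean levels with 10HDA, by 1.13 to 1.28 times, Dusp6 was 1.13 times higher on average, and Dusp1, Dusp4, Dusp5 and Etv4 had ratios of 0.878 to 0.999. Of the 10 members, 8 reached 10 CPM in 3 or more libraries and were tested by edgeR's quasi-likelihood method among 10520 genes. None of them passed an adjusted p of 0.1 without a culture term (0 of 8, against 0.627% of all genes tested). An unadjusted p under 0.05 was reached by 2 of the 8, Etv5 and Spry4, against 10.1% of all genes tested. With culture as a block, Etv5 passed (1 of 8, against 8.98% of all genes in either direction and 3.91% in the higher direction).

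Over the 8 tested members, 6 had a fold change above 0 and 2 below. Their median log2 fold change, 10HDA over vehicle, was 0.18, beside -0.0095 for all genes tested, and 0.17 with the block. Dusp5 and Spry1 were too low for this filter, and a fit with a lower filter (1 CPM in 3 or more libraries, 15311 genes) covered all 10 members. There 7 were above 0 and 3 below, with a median of 0.19 beside 0.013 for all genes. In that fit 0 members passed without a culture term (0.509% of all genes did) and Etv5 passed with the block (7.50% of all genes did).

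In 4 of the 10 genes, Spry1, Spry2, Spry4 and Etv5, every 10HDA library lay above every vehicle library, which was so for 6.65% of the genes past the 1 CPM filter. In 0 of the 10 were all 10HDA libraries below, against 7.15% of those genes. With cultures 3 and 4 alone, the same 4 genes had all 10HDA libraries above (16.3% of those genes did), and Dusp4 had them below (19.3% of those genes did). Compared within a culture, 8 of the 10 members were higher with 10HDA in culture 1 and 6 each in cultures 3 and 4, where 51.4%, 49.1% and 49.4% of all those genes were.

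**Figure D1:**
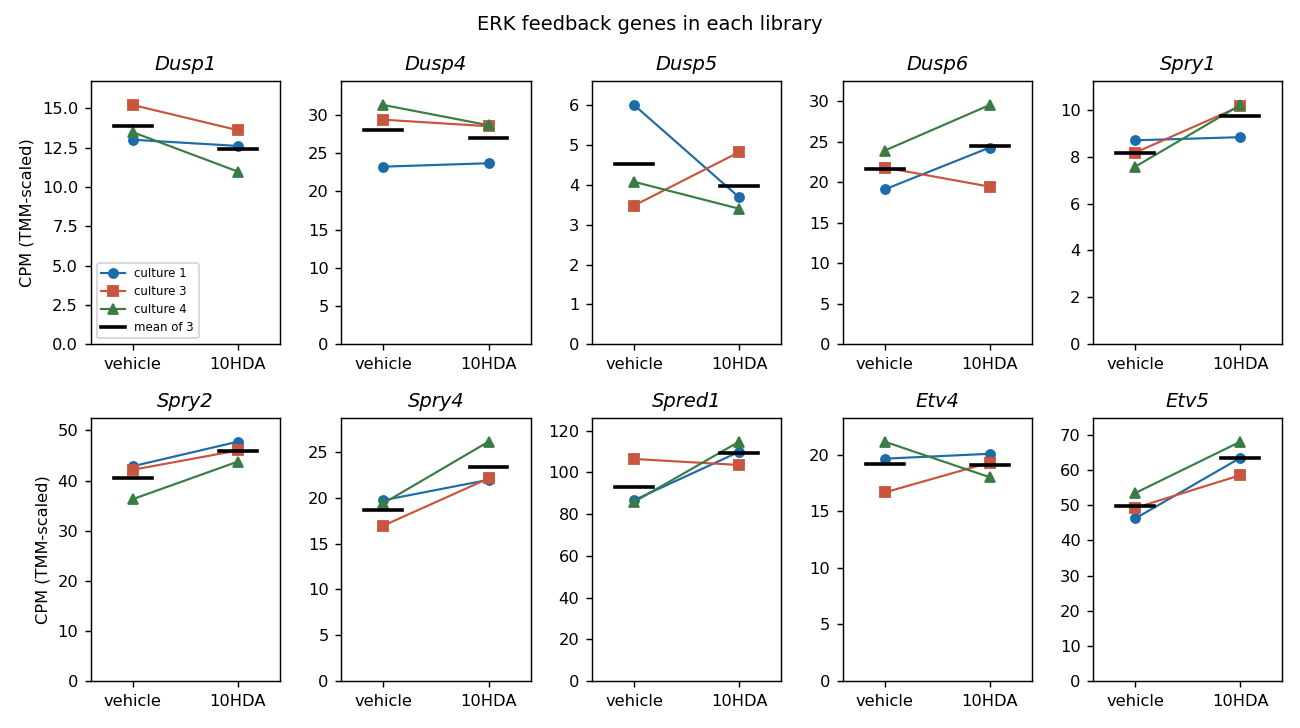
TMM-scaled CPM of the 10 feedback genes (vertical axis, from 0, a scale for each gene) with vehicle and with 10HDA. Points are single libraries, lines join the 2 libraries of a culture, and bars are means of 3; Etv5, Spry1, Spry2 and Spry4 have all 10HDA points above all vehicle points, whereas the points of Dusp1, Dusp4, Dusp5, Dusp6, Spred1 and Etv4 overlap.

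Etv5 (ENSMUSG00000013089.11, minus strand, chr16:22381309-22439719 in GRCm38) showed the largest fold change of the 8 members tested. In cultures 1, 3 and 4 it had 46.3, 49.3 and 53.5 CPM with vehicle and 63.5, 58.6 and 68.1 CPM with 10HDA. The groups did not overlap, and the level was higher in 3 of 3 cultures. Means were 49.7 ± 3.64 and 63.4 ± 4.77 CPM (SD, n = 3 each). The log2 fold change was 0.35 with a standard error (SE) of 0.11 and a 95% interval, for this gene alone, from 0.12 to 0.59 (adjusted p = 0.30). Within cultures 1, 3 and 4 the log2 difference was 0.46, 0.25 and 0.35. With culture as a block, Etv5 rose by a log2 fold change of 0.35 (adjusted p = 0.037, edgeR's quasi-likelihood test). That call did not hold in every blocked fit with a culture left out, while the log2 fold change moved little. Without culture 1, in which the Y-linked genes were low, the blocked log2 fold change was 0.32 (adjusted p = 0.15), and without culture 4 it was 0.36 (adjusted p = 0.29). It was 0.41 without culture 3 (adjusted p = 0.0094). Of all 10520 genes tested, 711, 277 and 1150 passed without cultures 1, 4 and 3, against 945 with all 6 libraries.

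Etv4 (ENSMUSG00000017724.10, minus strand, chr11:101769742-101785371), the other member of the PEA3 group of ETS factors here, had nearly equal means in both groups. It had 19.6, 16.7 and 21.1 CPM with vehicle and 20.1, 19.3 and 18.0 CPM with 10HDA in cultures 1, 3 and 4. The groups overlapped, with 2 of 3 cultures higher. The log2 fold change was 0.0039, with a 95% interval from -0.29 to 0.30, so changes within that range were not excluded (adjusted p = 0.99). Its sign turned when culture 3 was left out, to -0.095.

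Sprouty and Spred genes had fold changes above 0 in 4 of 4, with a median log2 fold change of 0.26 in the fit with the 1 CPM filter. Their summed level was 149 to 174 CPM with vehicle and 182 to 195 CPM with 10HDA, without overlap. None of the 4 passed an adjusted p of 0.1 in the fits with all 6 libraries and TMM scaling, with or without the block. With the block and library size alone, Spry4 and Spred1 passed together with Etv5, and the median of all genes was then 0.069. In that fit 1265 of all 10520 genes tested passed.

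Spry4 (ENSMUSG00000024427.6, chromosome 18), an inhibitor of RAS activation by growth factor receptors, had 19.7, 17.0 and 19.4 CPM with vehicle in cultures 1, 3 and 4. With 10HDA it had 22.0, 22.1 and 26.1 CPM. All 10HDA libraries were above all vehicle libraries, and 3 of 3 cultures were higher. The log2 fold change was 0.32 (SE 0.13, 95% interval 0.032 to 0.62), with an adjusted p of 0.45 without the block and 0.12 with it. Without culture 1, the blocked value was 0.43 (adjusted p = 0.099), and Spry4 was then the 1 member called, where 6.76% of all genes were.

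Spry2 (ENSMUSG00000022114.4, minus strand, chr14:105891947-105896819), the gene with the highest level per length of the set, had 42.9, 42.2 and 36.3 CPM with vehicle. The 10HDA libraries of the same cultures had 47.8, 46.0 and 43.8 CPM. These values lay above all vehicle values by a small margin, since the lowest 10HDA and the highest vehicle library differed by less than the SD of the vehicle group, 3.61 CPM. The log2 fold change was 0.18 (SE 0.11, adjusted p = 0.58). Differences within cultures 1, 3 and 4 were 0.16, 0.13 and 0.27 on the log2 scale.

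Spry1 (ENSMUSG00000037211.8, plus strand, chr3:37639947-37644598) was a low gene, with 91 to 141 counts a library. Its levels were 8.70, 8.17 and 7.57 CPM with vehicle and 8.83, 10.2 and 10.2 CPM with 10HDA. The groups did not overlap, but culture 1 differed by 0.022 on the log2 scale, against 0.31 and 0.43 in cultures 3 and 4. In the fit with the 1 CPM filter the log2 fold change was 0.27 (SE 0.16, adjusted p = 0.56). Exons of Spry1 share 710 bases with Gm42922 on the opposite strand, and because the strand setting of the counting was not given, reads of the 2 genes may not be separate.

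Spred1 (ENSMUSG00000027351.10, plus strand, chr2:117121374-117182279), which binds neurofibromin and holds back RAS, varied with the culture. With vehicle it had 86.7, 106 and 85.9 CPM in cultures 1, 3 and 4, and with 10HDA it had 110, 104 and 115 CPM. The vehicle library of culture 3 overlapped with the 10HDA libraries, and 2 of 3 cultures were higher. Log2 differences were 0.34 and 0.42 in cultures 1 and 4 but -0.040 in culture 3. The fitted log2 fold change was 0.24 (SE 0.11), with an adjusted p of 0.50 without the block and 0.18 with it. Without culture 3 the blocked fit gave 0.38 (adjusted p = 0.0092), so that 1 culture decided whether the gene was called.

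Fold changes of the DUSP genes lay on both sides of 0. In the fit with the 1 CPM filter, 1 of the 4, Dusp6, had a fold change above 0 and 3 had one below, with a median log2 fold change of -0.093. Their summed level was 61.3 to 72.7 CPM with vehicle and 64.2 to 72.5 CPM with 10HDA. For all 4 the libraries of the 2 treatments overlapped.

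Dusp6 (ENSMUSG00000019960.7, plus strand, chr10:99263231-99267489), which encodes a cytoplasmic phosphatase for ERK, is a widely used readout of FGF and ERK activity. It had 19.1, 21.8 and 23.9 CPM with vehicle and 24.3, 19.4 and 29.5 CPM with 10HDA in cultures 1, 3 and 4. Cultures 1 and 4 were higher by 0.35 and 0.31 on the log2 scale, and culture 3 differed by -0.17. The log2 fold change was 0.17, with a 95% interval from -0.19 to 0.53 (adjusted p = 0.73). As with Spred1, culture 3 had the opposite sign, and without it the blocked log2 fold change was 0.33 (adjusted p = 0.13).

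Dusp1 (ENSMUSG00000024190.6, minus strand, chr17:26505590-26562128), an immediate early phosphatase of nuclear MAP kinases, had 13.0, 15.2 and 13.5 CPM with vehicle. With 10HDA it had 12.6, 13.6 and 10.97 CPM. The level was lower with 10HDA in 3 of 3 cultures, but the groups overlapped. Its log2 fold change was -0.16 (SE 0.14, adjusted p = 0.71). The coordinates are those of the GENCODE M21 entry, which has 3311 exonic bases, against 2697 in the deposited table. That span extends upstream of the promoter window printed for Dusp1.

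Dusp4 (ENSMUSG00000031530.6, plus strand, chr8:34807297-34819894), a further nuclear phosphatase induced by ERK, had 23.2, 29.4 and 31.3 CPM with vehicle and 23.7, 28.5 and 28.6 CPM with 10HDA. Cultures differed more than treatments, since culture 1 was the lowest in both groups. The log2 fold change was -0.053, with a 95% interval from -0.37 to 0.26 (adjusted p = 0.91). Scaling by library size alone turned it to 0.026.

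Dusp5 (ENSMUSG00000034765.6, plus strand, chr19:53529109-53542431), a nuclear phosphatase specific for ERK, was the lowest member, with 31 to 67 counts a library. It had 6.01, 3.48 and 4.08 CPM with vehicle and 3.69, 4.82 and 3.40 CPM with 10HDA. Cultures 1 and 4 were lower and culture 3 higher with 10HDA. In the fit with the 1 CPM filter the log2 fold change was -0.15 (adjusted p = 0.85), and its 95% interval, from -0.69 to 0.40, was the widest of the 10 members. Exons of Dusp5 share 547 bases with AC137853.2 on the opposite strand.

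**Figure D2:**
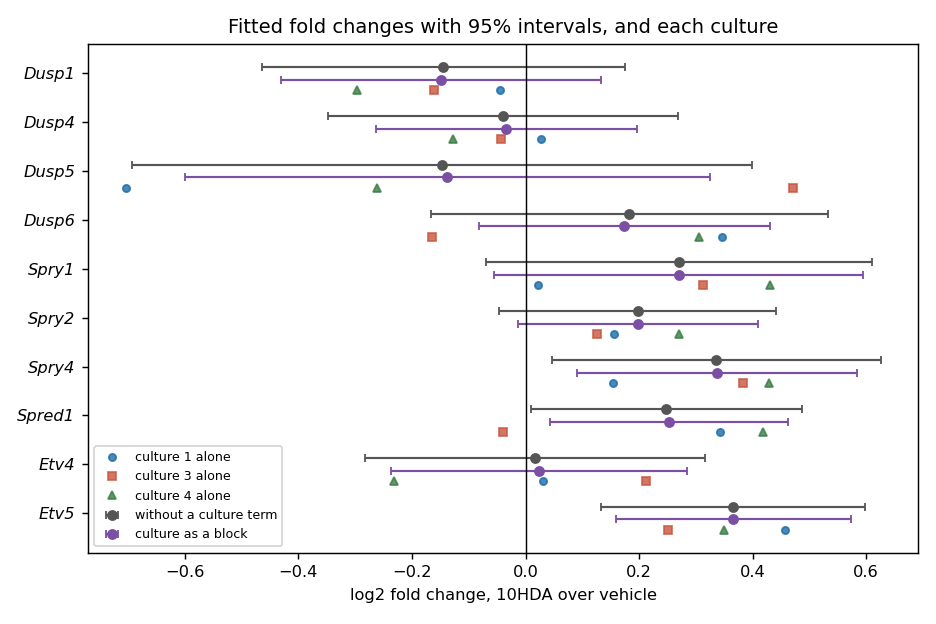
Log2 fold change of each feedback gene, 10HDA over vehicle (horizontal axis), in the fits of genes with at least 1 CPM. Circles with bars are fitted values and 95% intervals, each for its gene alone, without a culture term (grey) and with culture as a block (purple). The small symbols below are the differences within cultures 1, 3 and 4. The intervals of Etv5, Spry4 and Spred1 lie above 0 in both fits, and those of the other 7 include 0. At the 10 CPM filter without a culture term, the Spred1 interval was -0.0061 to 0.48 and included 0.

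Levels between genes were compared as CPM per kilobase of the exonic length in the deposited table. With vehicle, Spry2 was highest at 19.4 ± 1.73 (SD, n = 3), followed by Spred1 at 13.7, Etv5 at 12.1, Dusp4 at 10.2, Dusp6 at 7.72, Etv4 at 6.17, Dusp1 at 5.15, Spry4 at 4.07, Spry1 at 2.80 and Dusp5 at 1.83 CPM per kilobase. The set thus ranged from a Sprouty gene at the top to an ERK phosphatase at the bottom. Values of the 3 vehicle libraries overlapped between Spred1 and Etv5, Etv5 and Dusp4, Dusp4 and Dusp6, and Etv4 and Dusp1, so these neighbours cannot be put in order. The other neighbours did not overlap. With 10HDA the order of the means was the same, except that Spry4, at 5.10 ± 0.52, stood above Dusp1, at 4.60 ± 0.49 CPM per kilobase. The 10HDA libraries of these 2 genes overlapped, so with 10HDA they cannot be put in order.

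**Figure D3:**
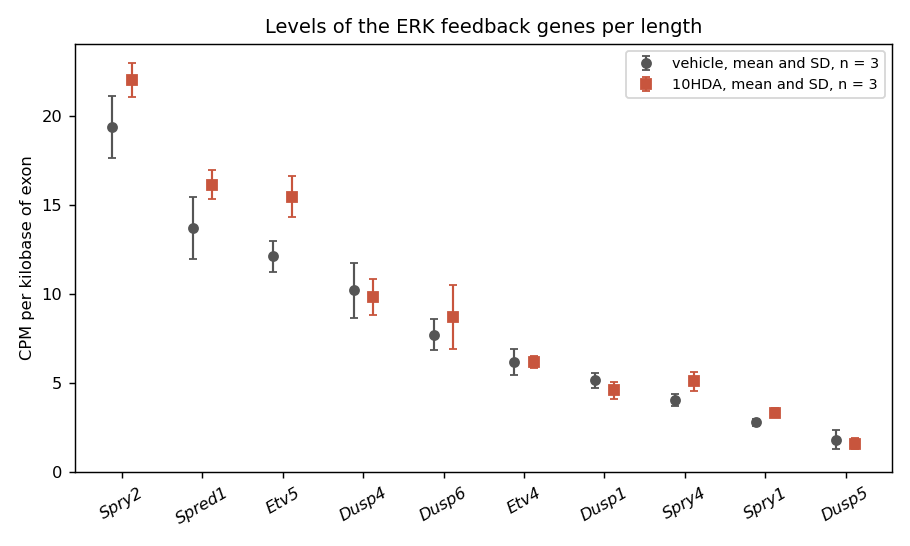
Level of each feedback gene in CPM per kilobase of exon (vertical axis, from 0), ordered by the vehicle mean. Points and bars are the mean and SD of 3 libraries with vehicle (grey circles) and with 10HDA (red squares); Spry2 was at 19.4 with vehicle and 22.0 with 10HDA, and Dusp5 at 1.83 and 1.61.

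The other genes of the pathway were taken from 7 lists of 145 genes, of which 144 were found in the table and 101 were tested. Of the 101, 43 had a fold change above 0 and 58 below, with a median log2 fold change of -0.037. Without a culture term 2 of them fell and 0 rose (0.627% of all genes tested passed). With the block 16 passed, 5 higher and 11 lower, where 3.91% of all genes tested passed in the higher and 5.08% in the lower direction. Of these 16, 10 also passed in the blocked fit without culture 1. The other 6 were Jun, Mapk3, Pea15a, Etv6, Fgfr2 and Fgf9.

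Among receptors and ligands upstream of ERK, 19 genes were tested, 6 above 0 and 13 below, with a median of -0.20. Both genes that passed without a culture term were receptors of this list. Pdgfrb, a platelet-derived growth factor receptor known from pericytes, fell from 14.9, 15.4 and 15.8 CPM to 6.17, 9.43 and 6.04 CPM, a log2 fold change of -1.07 (SE 0.18, adjusted p = 0.043). Kit, the receptor of stem cell factor, fell from 49.9, 56.9 and 53.4 CPM to 32.8, 34.1 and 38.0 CPM, a log2 fold change of -0.61 (SE 0.11, adjusted p = 0.049). Neither gene's treatments overlapped. Without culture 1 the log2 fold changes were -0.97 for Pdgfrb and -0.60 for Kit, and neither passed without a culture term (adjusted p = 0.37 for each), while both passed with the block (adjusted p = 0.0023 for Pdgfrb and 0.0045 for Kit). With the block, Met, Fgfr2 and Pdgfra were lower as well, and Egfr and Fgf9 higher. Fgfr1, the main FGF receptor of neural progenitors, had 91.9 ± 8.92 CPM with vehicle and 103 ± 2.16 CPM with 10HDA, a log2 fold change of 0.17 (adjusted p = 0.57).

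In the cascade from adaptors to ERK, 35 genes were tested, 13 above 0 and 22 below, with a median of -0.035. Without a culture term 0 passed, and with the block 4 did, all lower, where 5.08% of all genes were called lower. Shc3 had a blocked log2 fold change of -0.51 (adjusted p = 0.013, against 0.53 without the block). Its difference was -0.082 in culture 1, and without culture 1 the blocked value was -0.67 (adjusted p = 0.0021). Mapk3, which encodes ERK1, had 180.1 ± 27.2 CPM with vehicle and 143 ± 5.32 CPM with 10HDA, a log2 fold change of -0.33 (adjusted p = 0.39), and fell with the block (adjusted p = 0.057, but 0.39 at a log2 fold change of -0.18 without culture 1). Map2k1, the gene of the kinase MEK1, had 45.7 ± 6.63 and 53.1 ± 8.71 CPM, a log2 fold change of 0.22 (adjusted p = 0.62). Pea15a, whose product keeps ERK in the cytoplasm, had a log2 fold change of -0.32 (adjusted p = 0.36, and 0.048 with the block, but 0.29 at a log2 fold change of -0.21 when culture 1 was also left out), and the RAF scaffold gene Ksr2 had -0.38 (adjusted p = 0.39, and 0.036 with the block).

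Close relatives of the members had fold changes of both signs, 0 of them past the threshold without a culture term. Of the other MAP kinase phosphatases 4 were tested, 1 above 0 and 3 below, with a median of -0.15, and 0 passed in either fit. Dusp8, which acts on JNK and p38, had 247 ± 9.49 CPM with vehicle and 212 ± 11.8 CPM with 10HDA, and Dusp7, an ERK phosphatase, had 51.9 ± 3.10 and 45.2 ± 2.97 CPM. In both, all 10HDA libraries were below all vehicle libraries, with log2 fold changes at -0.22 for Dusp8 (adjusted p = 0.46) and at -0.20 for Dusp7 (adjusted p = 0.53). Of the other Sprouty, Spred and receptor feedback genes 12 were tested, 6 above 0 and 6 below, with a median of 0.0085, and 0 passed in either fit. Il17rd (Sef) had a log2 fold change of -0.19 (adjusted p = 0.64), and Cbl one of -0.40 (adjusted p = 0.65), with vehicle values of 16.4, 45.6 and 38.4 CPM that spanned those with 10HDA.

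Of the other ETS factors and Capicua genes 12 were tested, 5 above 0 and 7 below, with a median of -0.11. Etv6, a repressor of the ETS family, had 36.4 ± 2.74 CPM with vehicle and 27.2 ± 2.73 CPM with 10HDA, a log2 fold change of -0.42 (adjusted p = 0.27), and fell with the block (adjusted p = 0.020, and 0.10 without culture 1). The ETS repressor gene Erf had a log2 fold change of -0.28 (adjusted p = 0.54). Etv1, the third gene of the PEA3 group, was at -0.24 (adjusted p = 0.64), and Cic itself had 402 ± 71.2 and 364 ± 18.3 CPM, a log2 fold change of -0.14 (adjusted p = 0.70).

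Immediate early targets of ERK, of which 11 were tested, had 5 genes above 0 and 6 below and a median of -0.099. Jun had 72.7 ± 5.26 CPM with vehicle and 52.5 ± 7.92 CPM with 10HDA, and Btg2, an antiproliferative gene, 16.7 ± 3.26 and 26.1 ± 6.21 CPM. Neither overlapped between treatments, and with the block Jun fell, at a log2 fold change of -0.47 (adjusted p = 0.012), and Btg2 rose, at 0.65 (adjusted p = 0.0012). Without culture 1 the blocked value of Jun was -0.27 (adjusted p = 0.23), and that of Btg2 was 0.72 (adjusted p = 0.0030). Ier5, a further early gene, rose with the block at 0.36 (adjusted p = 0.068), and at 0.46 without culture 1 (adjusted p = 0.054). Btg2 is also on the list of intermediate progenitor markers, of which 3 of 4 tested genes were above 0, with a median of 0.46, and the part of that list in its value was not tested. Egr1 had 15.4 ± 3.37 and 18.9 ± 2.31 CPM (log2 fold change 0.30, adjusted p = 0.57). Fos was under the filter, at 2.06 to 2.66 CPM with vehicle and 1.87 to 3.52 CPM with 10HDA. Of the delayed output genes 8 were tested, 7 above 0 and 1 below, with a median of 0.14. Vgf, a neuropeptide precursor gene, had 66.1, 50.2 and 79.6 CPM with vehicle and 95.02, 74.4 and 115 CPM with 10HDA, and rose with the block (log2 fold change 0.54, adjusted p = 0.00080, against 0.36 without it). Map3k1 had a log2 fold change of 0.27 (adjusted p = 0.51), and Ccnd1, the cyclin D1 gene, one of 0.085 (adjusted p = 0.83).

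**Figure D4:**
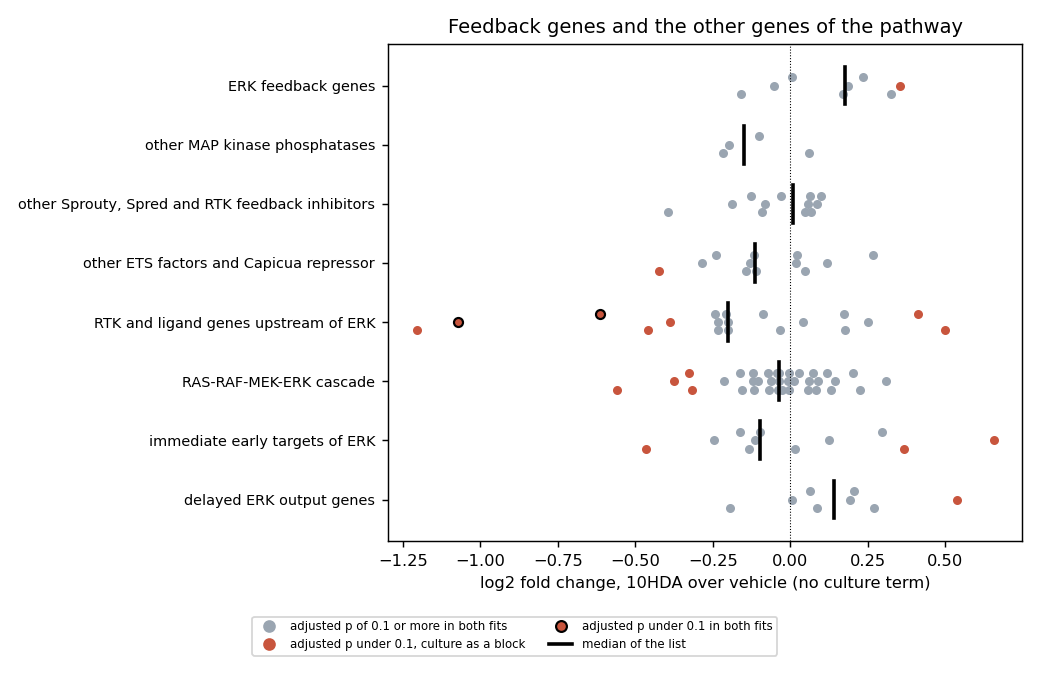
Log2 fold change, 10HDA over vehicle, without a culture term (horizontal axis) of the 8 tested feedback genes and of the tested genes of 7 related lists (rows). Each point is a gene, red where the adjusted p was under 0.1 with culture as a block and ringed in black where it was so in both fits (Pdgfrb and Kit), and the vertical bars are list medians, which were 0.18 for the feedback genes, 0.14 for the delayed output genes, 0.0085 for the other Sprouty and Spred genes and below 0 for the other 5 lists.

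Summed levels of several marker lists differed between treatments. Astrocyte markers summed to 1871 to 2263 CPM with vehicle and 1446 to 1762 CPM with 10HDA, with 11 of 12 tested genes below 0 and 5 called lower (0.627% of all genes were called). Radial glia markers summed to 2031 to 2274 and 1747 to 1961 CPM, with 7 of 9 tested genes below 0 and 0 called. Neuron markers summed to 8360 to 8927 and 7064 to 7994 CPM, with 10 of 11 tested genes below 0 and 0 called. For endothelial cells and pericytes the sums were 17.6 to 19.1 and 8.32 to 11.2 CPM, of which Pdgfrb made up 14.9 to 15.8 and 6.04 to 9.43 CPM. Oligodendrocyte lineage markers, Pdgfra among them, summed to 340 to 440 CPM with vehicle and 257 to 369 CPM with 10HDA, with 4 of 7 tested genes below 0 and 1 called. Intermediate progenitor markers went the other way in 3 of 4 tested genes, though their sums, 189.8 to 221 and 196 to 223 CPM, overlapped. Of that list 0 genes were called without a culture term and 3 with the block, Btg2 and Insm1 higher and Elavl4 lower, with Insm1 at a blocked log2 fold change of 0.74 (adjusted p = 8.5e-05). Interneuron markers were below 0 in 8 of 9 tested genes and excitatory neuron markers in 7 of 9, with medians of -0.21 and -0.18. Their sums overlapped, and 0 were called without a culture term. The block called 7 of 12 astrocyte, 4 of 9 radial glia, 3 of 11 neuron and 3 of 7 oligodendrocyte lineage markers. It also called 4 of 9 interneuron and 2 of 9 excitatory neuron markers, where 8.98% of all genes were called. All of these were lower, except 1 radial glia gene. Without culture 1 the blocked fit, which called 6.76% of all genes, no longer called Dlx1, Dlx2, Sst and Npy of the interneuron list. Their adjusted p was then 0.102, 0.70, 0.48 and 0.46. Astrocyte Sparcl1 was lost too (adjusted p = 0.22), whereas the other markers called with the block were still called. Without culture 1 and without a culture term, the 5 astrocyte calls and oligodendrocyte lineage gene Cspg4 were lost (adjusted p = 0.17 to 0.55). In that fit 3 of 10520 genes passed. Markers of dividing cells overlapped between treatments, at 178 to 220 and 175 to 232 CPM. The part of these shifts in the levels of Etv5, the Sprouty genes and the receptors was not tested.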

How the data were processed

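RNA of 6 primary cortical culture libraries was sequenced by the authors as single reads from a strand-specific kit. The authors mapped the reads, without trimming, to mm10 using Subjunc (Subread 1.4.4) and counted them on Gencode genes with featureCounts. The deposited values are raw counts per gene, beside the length of each gene. Symbols and coordinates were from GENCODE M21 (GRCm38), and 98% of identifiers had a symbol. The number of further sample columns was 0.

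Genes that did not reach 10 CPM in 3 libraries were removed as in the methods of the study, which left 10520 of 43346. After TMM scaling, edgeR 4.0.16 in R 4.3.3 (quasi-likelihood, Benjamini-Hochberg, threshold 0.1, no culture term) was used. The depth of 9144736 to 13367194 counts put 3 counts at 0.224 to 0.328 CPM, counting error only. Culture as a block was the second planned fit, since the labels pair the libraries by culture. As a check, deviations from the treatment means correlated across genes within cultures 1, 3 and 4 (r = 0.37, 0.23 and 0.62, against -0.45 to 0.19 between cultures). Deviations from a mean of 3 libraries sum to 0 for each gene, so part of this contrast is built in. A permutation test of 3 against 3 libraries has a smallest exact p of 0.1 and was left out.

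The members and lists were chosen with earlier results of these data known. All members are named, and of the related lists the genes past the threshold, the 2 of each list with the smallest p, and Mapk3, Map2k1, Fos, Egr1, Ccnd1, Fgfr1, Etv1 and Cic. Other genes named passed with the block, and 1 gene that the rule also covered is not reported here. Alternatives were other scalings, filters and thresholds, DESeq2 1.42.0, and libraries or cultures left out.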

Additional observations from a re-analysis of the deposited data

How the results depend on the processing

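Culture as a block gave 1 feedback gene past an adjusted p of 0.1 instead of 0 (Etv5). Of all 10520 genes tested, 945 passed with the block and 66 without. The block gave 1 feedback gene with the 1 CPM filter (1148 of 15311 genes passed) and 1 with DESeq2 size factors (943 of 10520). With the block and library size alone there were 3 (Etv5, Spred1 and Spry4), where 1265 of 10520 genes passed. The count of feedback genes stayed at 0 in every alternative without the block, where 0 to 636 of all genes passed. DESeq2's Wald test was among these alternatives (Etv5 had an adjusted p of 0.17 there). Blocked fits that left out culture 1, 3 or 4 gave 1, 2 and 0 feedback genes, where 711, 1150 and 277 of all 10520 genes passed. These fits and those of the block with another scaling were chosen after seeing the data. The count of related pathway genes was 2 in the reported fit, where 66 of all 10520 genes passed. It was 12 with no filter (636 of all 26859 genes passed), 5 with DESeq2's Wald test (170 of 10520) and 16 with the block (945). With the block it was 19 at the 1 CPM filter (1148 of 15311), 16 with DESeq2 size factors (943 of 10520) and 19 with library size alone (1265). Leaving out a library or a culture gave 0 to 6. It was 0 without vehicle culture 3 or 4, 10HDA culture 1 or any whole culture, where 0 to 36 of all 10520 genes passed. It was 4 without vehicle culture 1 (106 of all genes) and 6 without 10HDA culture 4 (350). Blocked fits that left out culture 1, 3 or 4 gave 13, 14 and 6, where 711, 1150 and 277 of all genes passed. The cause was not tested.

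The median of the feedback genes stayed above 0 in every alternative, from 0.12 to 0.26. Library size alone moved the median of all genes to 0.067, and that of the feedback genes to 0.25. Dusp4 turned from -0.053 to 0.026 with library size alone, 0.030 with the block and library size alone and 0.00018 with the block when culture 4 was left out, and ran from -0.15 to 0.053 over the fits with a library or culture left out. Etv4 ran from -0.095 to 0.13 over those fits, and was -0.095 with the block when culture 3 was left out. The other 6 members tested at 10 CPM kept their direction in all 21 alternatives, with adjusted p from 0.0092 to 0.999. With TMM scaling and all 6 libraries, the block changed the call of no member other than Etv5. At 31 to 67 counts a library, depth limits Dusp5.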
